A study of Homo sapiens with 32 samples.

Results

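The response of HEK293T cells to the METTL3 inhibitor STM2457 was compared between 9 h and 6 h of treatment, as a difference of effects: the change from DMSO to STM2457 at 9 h minus the same change at 6 h. HEK293T cells derive from human embryonic kidney and express SV40 large T antigen. By their titles, 14 of the 32 libraries of the series belonged to this comparison. These were 4 libraries with 20 µM STM2457 for 9 h, 4 with DMSO for 9 h, 3 with 20 µM STM2457 for 6 h and 3 with DMSO for 6 h. All 14 were labelled wild type and had 0.2% DMSO in the medium. The 9 h and 6 h libraries came from separate experiments, so time of treatment and experiment cannot be told apart. The 6 h libraries were made beside a YTHDF2 knockdown, and the labels do not say whether they received the control siRNA of that protocol. Another experiment of the series, in which emetine was tested, held 3 further libraries with STM2457 and 3 with DMSO at 6 h without emetine. By their titles, these libraries also had a further DMSO treatment in place of emetine, which the titles of the first 6 h libraries do not name. Its part in the results was not tested. The libraries without emetine stood in for the first 6 h libraries as a check.

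N6-methyladenosine (m6A) is placed on mRNA in the nucleus by a complex built on METTL3 and METTL14, most often where the motif GGACT or a close variant occurs. YTH-domain proteins read the mark in the cytoplasm, and YTHDF2 brings marked mRNAs to the CCR4-NOT deadenylase, so that many of them have short half-lives. When the writer is blocked, newly made mRNAs lack the mark while older ones still carry it, and levels shift as the pool of each mRNA is replaced.

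Poly(A) RNA was sequenced, with 22510323 to 34677704 reads assigned to genes per library at 9 h and 39087016 to 42303951 at 6 h. Levels are given in counts scaled to library size (CPM) after TMM scaling, and effects as log2 fold changes of STM2457 over DMSO. Since the labels do not say that replicates were separate cultures, p-values reflect the spread among these libraries and no more. STM2457 at 6 h, replicate 3, and DMSO at 6 h, replicate 2, differed from the other libraries of their groups more than any other pairs did. Ribosomal protein genes took 4.63 to 4.91% of the counts with STM2457 and 5.23 to 5.46% with DMSO at 9 h, and 6.84 to 8.08% with STM2457 and 6.31 to 6.44% with DMSO at 6 h. The 7 HEK293T markers summed to 1215 to 1300 CPM with STM2457 and 1304 to 1328 CPM with DMSO at 9 h, and to 972 to 1128 CPM with STM2457 and 1079 to 1106 CPM with DMSO at 6 h. The 6 fibroblast markers summed to 17.6 to 20.5 CPM with STM2457 and 17.6 to 18.9 CPM with DMSO at 9 h, and to 20.5 to 25.7 CPM with STM2457 and 26.5 to 31.4 CPM with DMSO at 6 h. COL1A1 was at 15.2 to 23.6 CPM, COL3A1 at 0.95 to 5.84 CPM, LUM at 0 to 1.98 CPM and THY1 at 0 to 0.20 CPM. DCN and COL1A2 stayed under 0.05 CPM. Of the other marker lists, the 6 blood genes summed to at most 3.12 CPM, the 4 hepatocyte and 4 keratin genes each summed to under 0.5 CPM in every library, and KRT14, TTR, SERPINA1 and PTPRC had no count. The part of these shares and marker levels in the results was not tested. In bulk RNA, fewer cells of a type and less RNA per cell cannot be told apart.

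METTL3 itself, the target of the inhibitor, checks no label here, since STM2457 blocks the enzyme and not its mRNA. It had 86.3, 85.3, 87.9 and 86.9 CPM with STM2457 and 86.6, 86.5, 84.3 and 80.6 CPM with DMSO at 9 h. At 6 h it had 78.0, 82.1 and 79.8 CPM with STM2457 and 73.2, 73.2 and 74.0 CPM with DMSO. The groups overlapped at 9 h and did not at 6 h, and the difference of effects was −0.09 ± 0.06 (SE; edgeR quasi-likelihood test, adjusted p = 0.258). The call depended on the setting, with −0.14 in DESeq2 (adjusted p = 0.047), −0.17 against the 6 h libraries of the emetine experiment (edgeR adjusted p = 0.0329) and −0.16 without DMSO at 9 h, replicate 4 (edgeR adjusted p = 0.0488). METTL3 overlaps TOX4 on the other strand.

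The effect of STM2457 differed between 9 h and 6 h in 5687 of 16749 genes tested, or 34% (edgeR quasi-likelihood F test on the 14 libraries, Benjamini-Hochberg adjusted p under 0.05). It was more positive at 9 h in 2878 genes, 17.2%, and more negative in 2809, 16.8%. Most differences were small. In 3984 of the called genes the difference was under 0.5 on the log2 scale, and with a test against a minimum difference of 0.5 there were 163 calls, 157 of them positive. The large differences were mostly positive: of 482 called genes with a difference of at least 1 (2.88% of those tested), 432 were more positive and 50 more negative at 9 h. The even split of all calls rests on the scaling, since a shift of 0.05 in the centre moves it: DESeq2 gave 2148 more positive and 3588 more negative, RLE scaling 2334 and 3605, upper-quartile scaling 3651 and 2081, and a fit of 20 libraries 2310 and 3892. Leaving out STM2457 at 9 h, replicate 1, gave 2060 and 3231. With libraries scaled to their ribosomal protein counts, the median over all genes shifted by 0.41, and 9520 genes were more positive and 70 more negative.

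**Figure D1:**
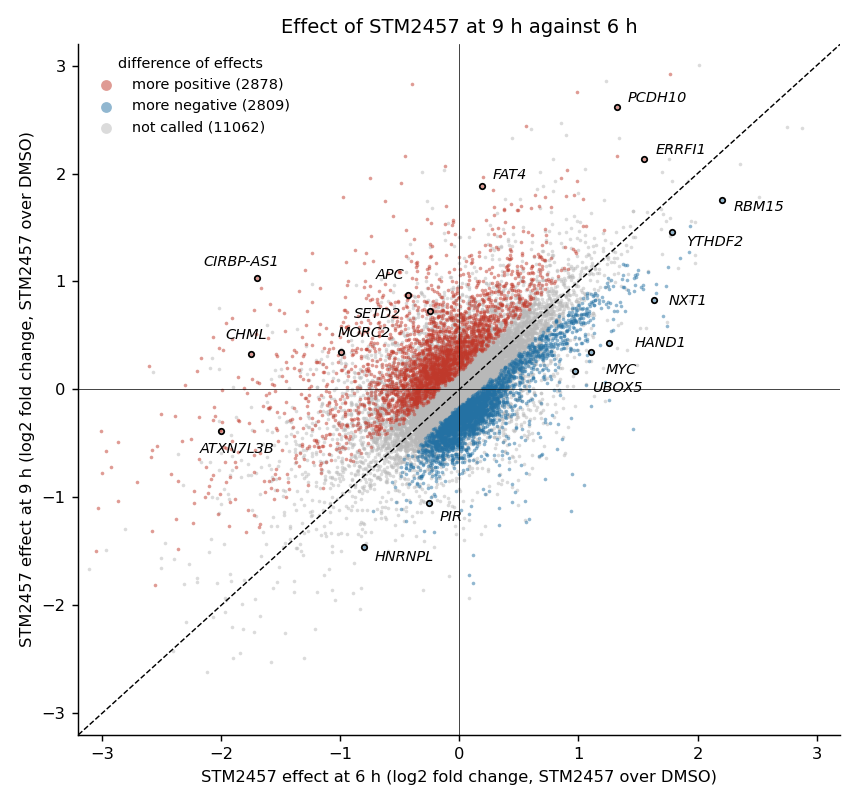
Each point is 1 of the 16749 genes tested, with its STM2457 effect at 6 h on the horizontal axis and at 9 h on the vertical axis, both as log2 fold changes of STM2457 over DMSO. The dashed line marks equal effects; genes more positive at 9 h (2878, red) lie above it, genes more negative (2809, blue) below it, and the points far to the left with effects near 0 at 9 h belong to genes such as CHML and ATXN7L3B. The axes end at 3.2, and 12 genes lie outside them.

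Called genes were sorted by the size of their effects, with a bound of 0.25 on the log2 scale. Among the genes more positive at 9 h, 841 were above the bound at 9 h and within it at 6 h, and 747 were within it at 9 h and below it at 6 h. Another 362 lay above the bound at 9 h and below it at 6 h, 316 were above it and 227 below it at both times, and 385 within it at both. Among the genes more negative at 9 h, the most common class was below the bound at 9 h and within it at 6 h (1122 genes). A further 443 were within it at 9 h and above it at 6 h, 401 were above it and 111 below it at both times, 658 within it at both, and 74 below it at 9 h and above it at 6 h.

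Genes picked for a strong response at 6 h had smaller median effects at 9 h in both directions. Genes with a called change of at least 1 were picked in the 6 h libraries of the emetine experiment, which share no library with the difference, among genes whose mean log2 CPM was 2 or more. The 111 genes picked for a fall had a median effect of −0.55 at 9 h and −1.19 at 6 h. Of these, 92 were called more positive at 9 h and none more negative, and 12 had an effect above 0 at 9 h. The 164 genes picked for a rise had a median effect of 0.95 at 9 h and 1.17 at 6 h. Of these, 87 were called more negative at 9 h and 11 more positive, and the effect at 9 h was above 0 in all 164. Among all 11322 genes at that level, 19.3% were more positive and 23.9% more negative. An effect of at least 1 was found in 169 of all these genes at 9 h and in 183 at 6 h. An effect of −1 or below was found in 30 and 94. Picking genes at 6 h by itself favours smaller effects at 9 h, and no set was picked at 9 h, so no general conclusion is drawn. These sets were chosen after the data had been seen and were given no test of their own.

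The motif that the writer prefers is spread unevenly over the genes with the largest differences, and its first copy with flanking bases is shown for the 4 of them that hold the most in their coding sequence. The sequences are coding sense strand of GENCODE 29 transcripts (GRCh38), 5′ to 3′, with GGACT in capitals.
FAT4: gtccaagggcGGACTggaccgtgag
PCDH10: tccgagtgctGGACTccaatgacaa
ADGRL3: aactatggcaGGACTgatgacaaaa
APC: tgaactagggGGACTacaggccatt
The coding sequences of FAT4, PCDH10, ADGRL3 and APC hold 24, 9, 5 and 5 copies on this strand, and 75.9% of the 13395 coding genes tested hold at least 1. FAT4, PCDH10 and APC were more positive at 9 h and ADGRL3 more negative. CHML and ATXN7L3B, with the largest and the 4th largest positive difference among the coding genes named, hold none in the coding sequence. Their 3′ untranslated regions hold 3 and 6 copies, and those of FAT4, PCDH10, ADGRL3 and APC hold 2, 2, 0 and 0. A match is a description of the letters and says nothing of whether the site is methylated.

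One group of genes was low with STM2457 at 6 h and close to or above DMSO at 9 h. CHML, which encodes the Rab escort protein REP2 (chromosome 1, 241628853 to 241640254, minus strand), had 144, 143, 143 and 131 CPM with STM2457 and 108, 111, 112 and 115 CPM with DMSO at 9 h. Its 6 h levels were 19.01, 20.2 and 14.6 CPM with STM2457 and 60.4, 58.7 and 62.4 CPM with DMSO. The groups did not overlap at either time, and STM2457 was the higher one at 9 h and the lower one at 6 h. The effects were 0.33 and −1.75, and the difference was 2.09 ± 0.10 (SE; edgeR adjusted p = 1.04e-12). CHML lies within OPN3 on the same strand, and OPN3 had effects of 0.51 at 9 h and 0.69 at 6 h, so the pair did not move together.

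ATXN7L3B, a single-exon gene related to a subunit of the SAGA deubiquitinase module (chromosome 12, 74537827 to 74545430, plus strand), had 148, 127, 135 and 127 CPM with STM2457 and 175, 175, 179 and 172 CPM with DMSO at 9 h, and at 6 h it had 36.6, 37.9 and 31.3 CPM with STM2457 and 144, 140 and 139 CPM with DMSO. STM2457 was lower at both times and by far the most at 6 h, and the difference was 1.61 ± 0.08 (SE; edgeR adjusted p = 6.09e-12). MORC2, an ATPase of the MORC family that works with the HUSH silencing complex (chromosome 22, 30925130 to 30968298, minus strand), had 140, 133, 132 and 136 CPM with STM2457 and 107, 103, 105 and 108 CPM with DMSO at 9 h. At 6 h it had 36.6, 40.7 and 32.6 CPM with STM2457 and 72.3, 72.8 and 73.6 CPM with DMSO. The groups were apart at both times and their order was opposite, with a difference of 1.34 ± 0.07 (SE; edgeR adjusted p = 3.81e-11).

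APC, the scaffold of the β-catenin destruction complex (chromosome 5, 112707498 to 112846239, plus strand), had 170, 157, 158 and 144 CPM with STM2457 and 81.9, 87.4, 88.3 and 85.4 CPM with DMSO at 9 h. Its 6 h levels were 64.5, 68.4 and 52.1 CPM with STM2457 and 82.6, 82.9 and 83.9 CPM with DMSO. Its effects were 0.87 and −0.43, in opposite directions, and the difference was 1.30 ± 0.09 (SE; edgeR adjusted p = 3.02e-09). The same order of effects, above 0 at 9 h and below 0 at 6 h, held for NPY1R (a neuropeptide Y receptor, difference 1.48), TIGD7 (1.46), ENDOD1 (1.35) and ZNF112 (a KRAB zinc finger gene, 1.33). DHFR2, a dihydrofolate reductase, SMIM10 and ZBTB26 were lower with STM2457 at both times, with effects of −0.31, −0.58 and −0.17 at 9 h and −1.997, −1.86 and −1.39 at 6 h. All 7 passed the test. The groups of TIGD7 overlapped at 9 h. Mean levels of NPY1R were 5.60 CPM with STM2457 and 3.21 CPM with DMSO at 9 h, and 6.42 and 10.3 CPM at 6 h. NPY1R overlaps NPY5R, DHFR2 overlaps NSUN3, and TIGD7 overlaps ZNF263 and ZNF75A, all on the other strand, and ZNF112 and APC each overlap a gene without a symbol on their own strand.

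CIRBP-AS1, an antisense RNA at the cold-inducible gene CIRBP (chromosome 19, 1267814 to 1270241, minus strand), had the smallest p of all genes. It had 24.2, 22, 22.4 and 21.7 CPM with STM2457 and 10.7, 10.4, 10.9 and 12.2 CPM with DMSO at 9 h, and 2.44, 2.84 and 2.35 CPM with STM2457 and 8.35, 8.67 and 7.76 CPM with DMSO at 6 h. STM2457 was the higher group at 9 h and the lower one at 6 h, with no overlap, and the difference was 2.73 ± 0.12 (SE; edgeR adjusted p = 7.14e-13). CIRBP, on the other strand, had effects of −0.25 at 9 h and −0.14 at 6 h and a difference of −0.11 (edgeR adjusted p = 0.268). The libraries were strand-specific, but the strand setting of the counting is not given in the sources used here.

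A second group was higher with STM2457 at 9 h by much more than at 6 h. FAT4, a giant protocadherin of the FAT family (chromosome 4, 125316399 to 125492932, plus strand), had 55.1, 53.03, 56.4 and 50.7 CPM with STM2457 and 14.8, 14.7, 13.95 and 14.9 CPM with DMSO at 9 h, and at 6 h it had 9.56, 10.7 and 8.51 CPM with STM2457 and 8.38, 7.92 and 8.99 CPM with DMSO. The groups overlapped at 6 h and were far apart at 9 h, and the difference was 1.69 ± 0.10 (SE; edgeR adjusted p = 1.25e-10).

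PCDH10, a cell adhesion protein of the δ-protocadherins (chromosome 4, 133149315 to 133208606, plus strand), had 496, 453, 480 and 444 CPM with STM2457 and 78.9, 78.0, 75.01 and 73.7 CPM with DMSO at 9 h. At 6 h it had 243, 228 and 200 CPM with STM2457 and 93.9, 86.1 and 88.0 CPM with DMSO. STM2457 was higher at both times, with effects of 2.62 at 9 h and 1.32 at 6 h, and the difference was 1.29 ± 0.08 (SE; edgeR adjusted p = 2.72e-10). SMAD6, an inhibitor of BMP signalling, had effects of 1.00 at 9 h and −0.16 at 6 h, and SETD2, the methyltransferase for lysine 36 of histone H3, had 0.73 and −0.25. ELFN2 had effects of 1.48 at 9 h and 0.27 at 6 h, though 0.95 in the 6 h libraries of the emetine experiment, which took its difference to 0.53 (edgeR adjusted p = 0.0185), against 1.21 otherwise (edgeR adjusted p = 0.000168).

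**Figure D2:**
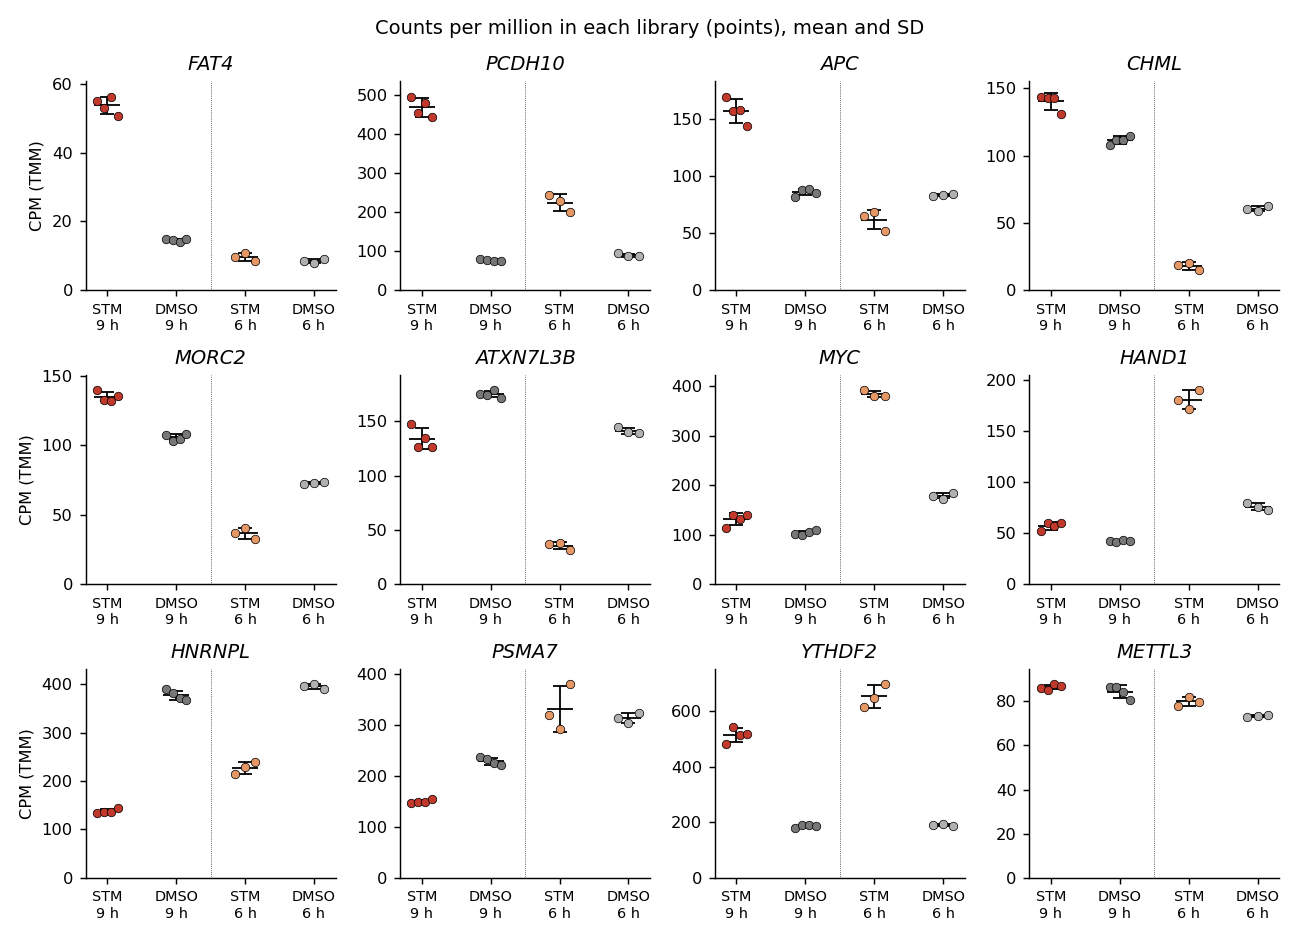
CPM after TMM scaling in each library (points) for 12 genes, with the mean and SD of each group (bars), STM2457 left of DMSO and 9 h left of 6 h; every vertical axis starts at 0. FAT4 and PCDH10 are highest with STM2457 at 9 h, CHML, MORC2 and ATXN7L3B are lowest with STM2457 at 6 h, and MYC and HAND1 are highest with STM2457 at 6 h.

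Among the genes more negative at 9 h were several that were above DMSO at 6 h and less so, or not, at 9 h. HAND1, a basic helix-loop-helix transcription factor of heart and placenta (chromosome 5, 154474972 to 154478264, minus strand), had 51.6, 59.8, 56.9 and 59.9 CPM with STM2457 and 42.4, 41.7, 43.5 and 42.1 CPM with DMSO at 9 h. Its 6 h levels were 181, 172 and 190 CPM with STM2457 and 79.5, 75.9 and 72.5 CPM with DMSO. STM2457 was higher at both times, by 0.43 at 9 h and 1.26 at 6 h, and the difference was −0.83 ± 0.07 (SE; edgeR adjusted p = 7.67e-08).

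MYC, a growth-promoting transcription factor with a short-lived mRNA (chromosome 8, 127735434 to 127741434, plus strand), had 113, 140, 132 and 140 CPM with STM2457 and 100.1, 99.1, 105 and 109 CPM with DMSO at 9 h, and at 6 h it had 391.8, 380.3 and 381.3 CPM with STM2457 and 179, 173 and 183 CPM with DMSO. The groups were apart at both times, with effects of 0.35 at 9 h and 1.11 at 6 h, and the difference was −0.76 ± 0.08 (SE; edgeR adjusted p = 8.41e-07). TMEM100, a membrane protein induced by BMP signalling, had effects of 0.00 at 9 h and 0.83 at 6 h, and its groups overlapped at 9 h. NXT1, a partner of the mRNA export receptor, had 0.83 and 1.64. UBOX5, a ubiquitin ligase gene that shares its position with FASTKD5 on the same strand, had 0.17 and 0.97. All 3 passed the test.

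Other genes were lower with STM2457 at 9 h, some of them at both times. HNRNPL, a splicing regulator (chromosome 19, 38836388 to 38852347, minus strand), had 134, 135, 137 and 145 CPM with STM2457 and 389, 381, 372 and 368 CPM with DMSO at 9 h. At 6 h it had 214, 228 and 239 CPM with STM2457 and 396, 400.2 and 391 CPM with DMSO. It was lower with STM2457 at both times, by 1.46 at 9 h and 0.80 at 6 h on the log2 scale, and the difference was −0.66 ± 0.06 (SE; edgeR adjusted p = 2.66e-07). HNRNPL overlaps a gene without a symbol on its own strand. PIR, an iron-binding nuclear protein whose gene overlaps BMX, had effects of −1.05 at 9 h and −0.26 at 6 h. ADGRL3, an adhesion receptor, had −0.61 and 0.23, SYBU, which links mitochondria and vesicles to kinesin, −0.45 and 0.41, and POMP, the proteasome maturation protein, −0.67 and 0.14. All 4 passed the test.

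The 3 most negative differences among the named genes did not hold against the other 6 h libraries. TMEM160, RAB5IF and C4orf48 had differences of −1.19, −1.02 and −0.96 (edgeR adjusted p = 0.00231, 0.00146 and 0.000897). Against the 6 h libraries of the emetine experiment these were −0.62, −0.16 and −0.39 (edgeR adjusted p = 0.0924, 0.642 and 0.15). In DMSO at 9 h, replicate 4 was the lowest library for each of them, with 7.36, 9.28 and 5.70 CPM, while the other 3 libraries had 12.2 to 19.3, 14.7 to 17.1 and 8.72 to 10.2 CPM. Without that library the differences were −1.45, −1.24 and −1.16. RAB5IF overlaps SLA2 and a readthrough gene. SMIM14 (−0.77) lost its call in the same way, at −0.48 (edgeR adjusted p = 0.0527).

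**Figure D3:**
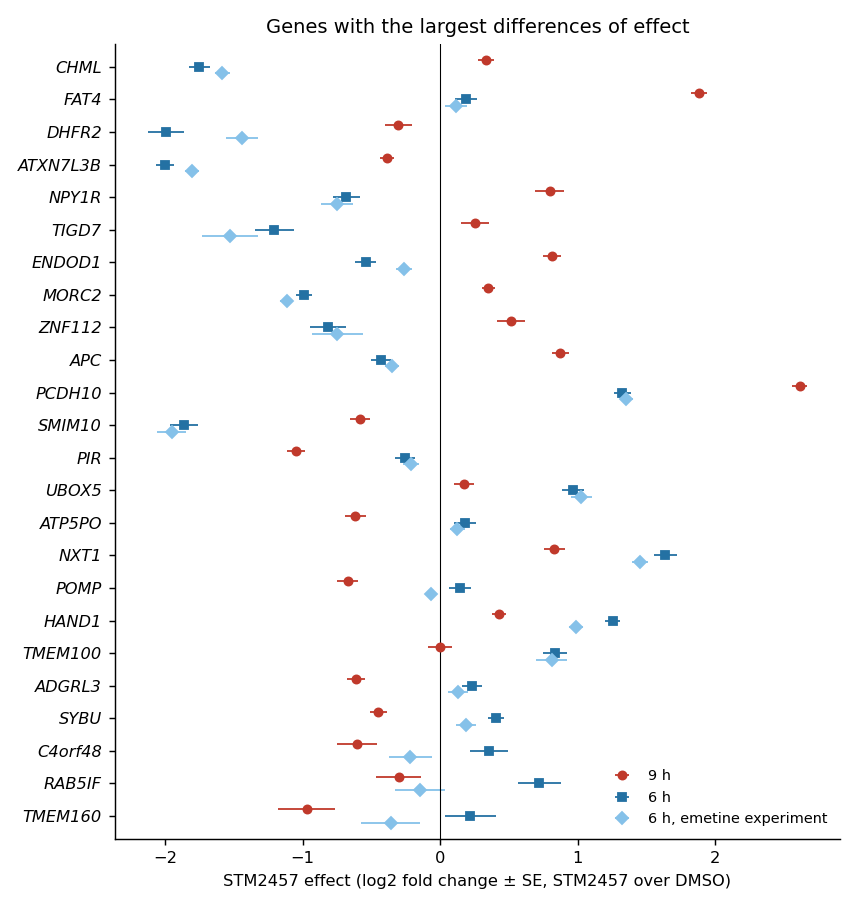
STM2457 effects (log2 fold change of STM2457 over DMSO, with SE) at 9 h (circles), at 6 h (squares) and at 6 h in the emetine experiment (diamonds) for the 12 protein coding genes with the most positive and the 12 with the most negative difference of effects. The 2 sets of 6 h values lie close together for most genes and apart by more than 0.5 for RAB5IF, TMEM160, C4orf48 and DHFR2, where the 6 h effect was 0.72, 0.22, 0.35 and −1.997 in one experiment and −0.15, −0.36, −0.22 and −1.44 in the emetine experiment.

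Of the m6A writer complex, RBM15 and WTAP were more negative at 9 h and none of the 8 genes more positive. Among all genes 16.8% were more negative and 17.2% more positive. All 8 writer genes had effects above 0 at both times. RBM15, which recruits the complex to RNA, had 133, 148, 138 and 134 CPM with STM2457 and 41.5, 39.6, 43.0 and 39.9 CPM with DMSO at 9 h. Its 6 h levels were 188, 191 and 204 CPM with STM2457 and 42.4, 41.6 and 42.1 CPM with DMSO. The rise was large at both times, 1.75 at 9 h and 2.21 at 6 h, and the difference was −0.46 ± 0.07 (SE; edgeR adjusted p = 4.09e-05). WTAP, the adaptor that holds the writer in nuclear speckles and whose gene overlaps SOD2 on the other strand, had effects of 0.64 at 9 h and 0.97 at 6 h. Its difference of −0.33 (edgeR adjusted p = 0.00337) had the opposite sign, 0.10, when libraries were scaled to ribosomal protein genes.

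All 3 cytoplasmic YTHDF readers were raised less at 9 h. YTHDF2 had 481, 543, 515 and 516 CPM with STM2457 and 180, 192, 189 and 186 CPM with DMSO at 9 h, and 616, 648 and 698 CPM with STM2457 and 191, 193 and 186 CPM with DMSO at 6 h. Every STM2457 library was above every DMSO library, and the effects were 1.46 at 9 h and 1.78 at 6 h, a difference of −0.32 ± 0.07 (SE; edgeR adjusted p = 0.00125). YTHDF3 had effects of 0.43 at 9 h and 1.03 at 6 h, and YTHDF1 0.43 and 0.84, both called. IGF2BP3, a reader that stabilises mRNAs, and the demethylase FTO were more positive at 9 h, with differences of 0.31 and 0.30. They overlap MALSU1 and RPGRIP1L on the other strand. In all, 2 of the 12 reader and eraser genes were more positive and 5 more negative, beside 17.2% and 16.8% of all genes. Their median difference was −0.08, beside 0.03 over all genes tested. For YTHDF1 and YTHDF2 the sign turned under scaling to ribosomal protein genes, and for YTHDF3 it did not.

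Genes of protein supply and breakdown moved the same way. The proteasome, which degrades ubiquitin-tagged proteins, had 30 of its 31 subunit genes more negative at 9 h and none more positive, where 16.8% of all genes, and 40% of coding genes in the highest of 5 bins of mean expression, were more negative. The median effect of the subunits was −0.60 at 9 h and −0.09 at 6 h, and their median difference was −0.52, or −0.55 relative to all genes. With the 6 h libraries of the emetine experiment 28 of 31 were more negative, with a median of −0.43. PSMA7, a subunit of the core particle, had 146, 149, 148 and 154 CPM with STM2457 and 236, 233, 226 and 221 CPM with DMSO at 9 h, and at 6 h it had 320, 292 and 380 CPM with STM2457 and 314, 304 and 324 CPM with DMSO. The groups overlapped at 6 h and did not at 9 h, and replicate 3 with STM2457 was the highest library at 6 h. The differences were −0.70 for PSMA7, −0.57 for PSMD7, −0.52 for PSMB1 and −0.46 for PSMC5, which overlaps FTSJ3 on the other strand (edgeR adjusted p = 4.91e-06, 5.54e-06, 1.83e-05 and 2.05e-05). Without replicate 3 the proteasome median was −0.42, with 29 of 31 more negative.

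Ribosomal proteins and the respiratory chain were higher with STM2457 at 6 h and lower at 9 h in the middle of their lists. Of 86 cytosolic ribosomal protein genes, 76 were more negative and none more positive, with median effects of −0.15 at 9 h and 0.26 at 6 h. RPL14, of the large subunit, had 368, 413, 403 and 397 CPM with STM2457 and 519, 507, 524 and 543 CPM with DMSO at 9 h. At 6 h it had 831, 853 and 1089 CPM with STM2457 and 780, 783 and 789 CPM with DMSO. STM2457 was the lower group at 9 h and the higher one at 6 h, with replicate 3 far above the others, and the difference was −0.64 ± 0.10 (SE; edgeR adjusted p = 4.02e-05). Of 83 nuclear genes of the respiratory chain, 66 were more negative and none more positive, with median effects of −0.23 at 9 h and 0.15 at 6 h. Among all genes 16.8% were more negative, and 40% of coding genes in the highest of 5 bins of mean expression. The 6 h medians were smaller in the emetine experiment, 0.16 for the ribosomal proteins and 0.05 for the respiratory chain. NDUFS4 of complex I, ATP5PO of the ATP synthase, NDUFB6 of complex I and UQCRC1 of complex III had differences of −0.78, −0.80, −0.69 and −0.49. ATP5PO overlaps a gene without a symbol on its own strand and NDUFB6 overlaps SMIM27 on the other. The 13 genes of mitochondrial DNA encode other subunits of the same complexes. They had no call in either direction and a median difference of 0.02. The mitochondrial share of the counts varied widely within groups, from 3.824 to 6.597% with DMSO and 4.844 to 6.69% with STM2457 at 6 h. At 9 h it was 1.322 to 2.443% with DMSO and 1.793 to 2.213% with STM2457. With this spread, the lack of calls does not show that the effect on these genes was the same at both times.

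The list medians for ribosomal proteins and the respiratory chain were −0.45 and −0.37. They were −0.32 and −0.27 without STM2457 at 6 h, replicate 3, and also −0.32 and −0.27 against the 6 h libraries of the emetine experiment, where 72 of 86 and 66 of 83 genes were more negative. Mitochondrial ribosomal proteins followed with 43 of 77 more negative and 3 more positive, with MRPL13, which overlaps MTBP, at −0.70, MRPL58 at −0.70 and MRPL23 at −0.69. Over all genes, 16.8% were more negative and 17.2% more positive. In the highest of 5 bins of mean expression, 40% of coding genes were more negative. The median of the mitochondrial ribosomal proteins was −0.26. It was −0.15 against the 6 h libraries of the emetine experiment, with 38 more negative and 7 more positive. Without STM2457 at 6 h, replicate 3, 39 were more negative and 6 more positive.

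Translation factors had 27 of 44 genes more negative and 4 more positive, with the eIF3 subunits EIF3E at −0.69, EIF3M at −0.53 and EIF3F at −0.40, and EIF1AX at −0.43. The 4 more positive became 1 against the 6 h libraries of the emetine experiment and 2 without STM2457 at 9 h, replicate 2. Of 23 tRNA synthetase genes 12 were more negative and none more positive, among them RARS1 (−0.47) and the scaffold AIMP1 (−0.46). Heat shock chaperones had 13 of 18 more negative and none more positive. These counts stand beside 16.8% of all genes, and 40% of coding genes in the highest expression bin, that were more negative. HSPA8, the constitutive cytosolic HSP70, had 1913, 2306, 2132 and 2137 CPM with STM2457 and 3169, 3114, 3086 and 3128 CPM with DMSO at 9 h. Its 6 h levels were 2948, 3050 and 3490 CPM with STM2457 and 3051, 3017 and 3082 CPM with DMSO. The groups overlapped at 6 h and were apart at 9 h, with a difference of −0.61 ± 0.09 (SE; edgeR adjusted p = 3.09e-05). HSPE1, the mitochondrial co-chaperone, which overlaps HSPD1 and a readthrough gene, was at −0.61 and DNAJA1 at −0.37. EIF3M overlaps CCDC73 and AIMP1 overlaps TBCK, each on the other strand.

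Among mRNA decay factors the lists differed, beside 17.2% of all genes more positive and 16.8% more negative. The RNA exosome had 7 of 12 genes more negative and 1 more positive, with EXOSC5 at −0.52 and the nuclease DIS3 at −0.32. Decapping and P-body genes had 7 of 20 more negative and none more positive, and the 3 named members were LSM5 (−0.57), LSM2 (−0.46) and LSM7 (−0.40) of the LSM ring that binds deadenylated ends. Without DMSO at 9 h, replicate 4, 12 decapping genes were more negative. Among deadenylases CNOT10, a CCR4-NOT subunit, was at −0.34 and PAN2 at 0.48, in a list with 3 of 14 more negative and 1 more positive, close to the share of all genes. That count of 3 became 5 without STM2457 at 9 h, replicate 1, and 6 without any 1 of STM2457 at 9 h, replicates 2, 3 and 4, DMSO at 9 h, replicate 4, and STM2457 at 6 h, replicate 1. Factors of nonsense-mediated decay had 4 of 14 more negative and 2 more positive, with a median of 0.03, the same as over all genes. Host genes of small nucleolar RNAs, whose spliced transcripts are degraded during translation, had 8 of 16 more negative and none more positive, with EPB41L4A-AS1 (−0.42), SNHG32 (−0.46), SNHG15 (−0.34) and SNHG7 (−0.31). Without STM2457 at 6 h, replicate 3, their median was −0.15 with 7 more negative, where it was −0.25 with all libraries. EXOSC5, DIS3, LSM7, PAN2, EPB41L4A-AS1 and SNHG7 overlap other genes.

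These list medians are relative measures. Under the scaling to ribosomal protein counts, with its shift of 0.41, the medians of the proteasome (−0.10) and of the ribosomal proteins (−0.02) were below 0 while those of the other lists described so far were above 0. Relative to the median of all genes, that scaling left the proteasome at −0.54, the ribosomal proteins at −0.46 and the respiratory chain at −0.39, beside −0.55, −0.48 and −0.40 with TMM.

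**Figure D4:**
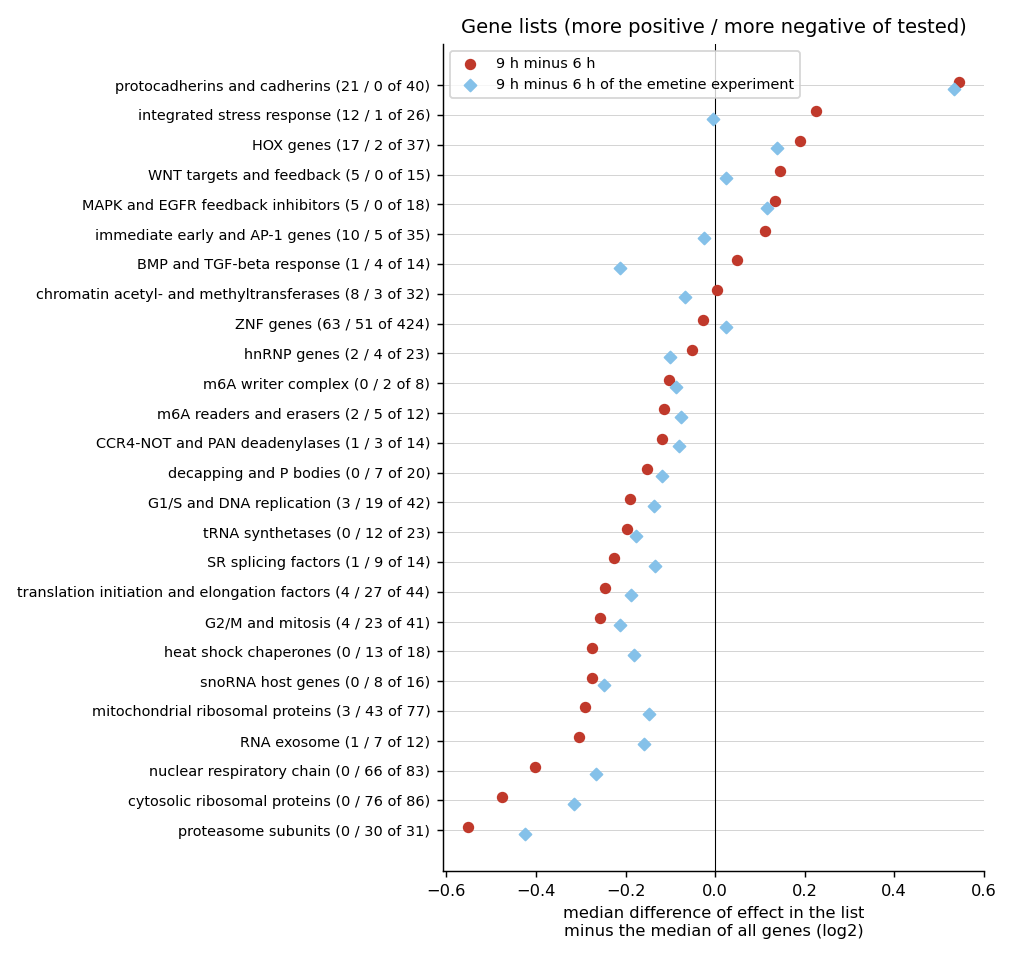
Median difference of effect for 26 gene lists, given relative to the median of all genes tested (log2), with the 6 h libraries of the same comparison (circles) and with those of the emetine experiment (diamonds). Numbers in brackets are the genes called more positive and more negative of those tested. The proteasome lies lowest at −0.55 and the protocadherins and cadherins highest at 0.55, and the symbols lie far apart for the BMP and TGF-beta response, at 0.05 and −0.21, and for the integrated stress response, at 0.23 and −0.01.

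Adhesion and patterning genes moved the other way. Of 40 protocadherin and cadherin genes tested, out of 98 listed, 21 were more positive at 9 h and none more negative, where 17.2% of all genes were more positive. Their median effect was 0.27 at 9 h and −0.20 at 6 h. Besides FAT4 and PCDH10 the named members were PCDH7 (difference 0.69, effects 1.06 and 0.37) and CELSR2, a planar polarity cadherin (0.74, effects 0.30 and −0.44). With the 6 h libraries of the emetine experiment 16 of 36 were more positive and 1 more negative. The list counts genes that passed the filter on low counts only, and many clustered protocadherins share exons. A gene can pass this filter through 1 group alone, such as STM2457 at 9 h, so the counts are no test of the list.

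Of 37 HOX genes, which set position along the body axis, 17 were more positive at 9 h and 2 more negative, with median effects of 0.72 at 9 h and 0.49 at 6 h. Beside these counts, 17.2% of all genes were more positive and 16.8% more negative. HOXB9 had 634, 635, 671 and 644 CPM with STM2457 and 275, 271, 281 and 268 CPM with DMSO at 9 h, and at 6 h it had 453, 479 and 466 CPM with STM2457 and 295, 305 and 273 CPM with DMSO. STM2457 was above DMSO in every library at both times, and the difference was 0.56 ± 0.06 (SE; edgeR adjusted p = 2.11e-06). HOXB5, HOXB8 and HOXA11 had differences of 0.68, 0.70 and 0.48, and that of HOXB8 was 0.28 against the 6 h libraries of the emetine experiment. With those libraries 13 of 37 HOX genes were more positive and none more negative, and without STM2457 at 9 h, replicate 3, 11 were more positive. HOXB9 and HOXB8 overlap HOXB7 on the same strand, whose difference was 0.22 (edgeR adjusted p = 0.031), and HOXB5 overlaps HOXB3 on the same strand, at 0.25 (edgeR adjusted p = 0.0999).

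Among signalling genes, of 18 inhibitors of MAPK and EGFR signalling 5 were more positive and none more negative. Over all genes, 17.2% were more positive and 16.8% more negative. ERRFI1, which binds and blocks EGFR, had 156, 196, 181 and 180 CPM with STM2457 and 40.5, 40.2, 41.9 and 40.3 CPM with DMSO at 9 h. At 6 h it had 101, 101 and 111 CPM with STM2457 and 35.3, 37.4 and 34.3 CPM with DMSO. The groups were far apart at both times, with effects of 2.13 at 9 h and 1.55 at 6 h and a difference of 0.58 ± 0.09 (SE; edgeR adjusted p = 4.15e-05). The MAPK phosphatase DUSP1 was at 0.54 and SOCS4 at 0.36. DUSP16, at 0.22 (edgeR adjusted p = 0.00743), lost its call against the 6 h libraries of the emetine experiment, at 0.10 (edgeR adjusted p = 0.189), and with no filter on low counts (edgeR adjusted p = 0.0939).

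In the BMP response the ligand-induced genes ID2 and BAMBI were more negative, by −0.75 and −0.68, while SMAD6 was more positive, by 1.16. ID2, an inhibitor of differentiation factors, had effects of 0.32 at 9 h and 1.07 at 6 h, and BAMBI, a decoy receptor, 0.97 and 1.65. The list of 14 had 4 more negative and 1 more positive, and its median of 0.08 was 0.02 without STM2457 at 6 h, replicate 3. This and the next 2 lists stand beside 17.2% of all genes more positive and 16.8% more negative. Of 15 WNT targets and feedback genes 5 were more positive and none more negative, with the ubiquitin ligase RNF43 at 1.22, the receptor FZD7 at 0.68 and the inhibitor NKD1 at 0.50. Their median of 0.17 was 0.11 without STM2457 at 6 h, replicate 3, and 0.02 against the 6 h libraries of the emetine experiment, where 3 were more positive. RNF43 overlaps SUPT4H1 on the same strand, which had a difference of −0.95. Of 35 immediate early genes 10 were more positive, among them IER3 (0.81), BTG2 (0.57) and MCL1 (0.32), and 5 more negative, among them MYC. The count of 10 became 6 without any 1 of STM2457 at 9 h, replicates 2 and 4, and DMSO at 9 h, replicates 1 and 4. The count of 5 became 3 without any 1 of DMSO at 9 h, replicate 1, STM2457 at 6 h, replicate 1, and DMSO at 6 h, replicates 1 and 2.

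The integrated stress response, a programme of amino acid supply under the factor ATF4, did not hold between the 6 h experiments. Of 26 genes 12 were more positive and 1 more negative, beside 17.2% and 16.8% of all genes. Named members were STC2 (0.74), PCK2 (0.70), ALDH1L2 (0.55) and SLC7A5 (0.44). Against the 6 h libraries of the emetine experiment 6 were more positive and 6 more negative, and the list median was −0.01 in place of 0.25. Without STM2457 at 9 h, replicate 4, or DMSO at 9 h, replicate 4, 3 were more negative. The 4 named genes remained called against the 6 h libraries of the emetine experiment, at 0.30, 0.44, 0.38 and 0.30. PCK2 and ALDH1L2 overlap NRL and NOPCHAP1 on the other strand. Other medians also turned against the 6 h libraries of the emetine experiment. For the immediate early genes the median was −0.03 in place of 0.14, with 5 more positive and 4 more negative. For the BMP response it was −0.22 in place of 0.08, with 2 and 5.

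Cell cycle genes had more negative than positive calls, where 16.8% of all genes were more negative and 17.2% more positive. In the highest of 5 bins of mean expression, 40% of coding genes were more negative. Of 41 genes of G2 and mitosis 23 were more negative and 4 more positive, with median effects of −0.32 at 9 h and −0.13 at 6 h. The ubiquitin-conjugating enzyme UBE2S was at −0.76, the checkpoint protein MAD2L1 at −0.57 and ECT2 at −0.37, while CENPF, a long kinetochore protein, was at 0.74. Of 42 genes of G1/S and replication 19 were more negative, 3 more positive and 20 not called. FEN1, the flap endonuclease, had 401, 422, 425 and 408 CPM with STM2457 and 164, 167, 167 and 164 CPM with DMSO at 9 h. Its 6 h levels were 360.3, 357 and 336 CPM with STM2457 and 195, 191 and 183 CPM with DMSO. It was higher with STM2457 in every library at both times and more so at 9 h, by 0.43 ± 0.06 (SE; edgeR adjusted p = 1.78e-05). TYMS, thymidylate synthase, was at −0.48 and RFC5 at −0.42. UBE2S, TYMS, RFC5 and FEN1 overlap RPL28, ENOSF1, WSB2 and FADS2 with TMEM258.

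Among SR splicing factors 9 of 14 were more negative and 1 more positive, with SRSF6 and SRSF3 both at −0.39 and SRSF4 at −0.28. In the highest of 5 bins of mean expression, 40% of coding genes were more negative. The hnRNP list had 4 of 23 more negative, HNRNPL and RALY (−0.39) among them, and 2 more positive. Its share of negative calls was close to the 16.8% of all genes and below that 40%. Against the 6 h libraries of the emetine experiment it had 10 more negative and 6 more positive. Among 32 chromatin acetyl- and methyltransferases, SETD2 was at 0.98, ASH1L at 0.40 and DOT1L at 0.33. In this list 8 were more positive and 3 more negative, beside 17.2% and 16.8% of all genes. This balance did not hold against the 6 h libraries of the emetine experiment, with 5 more positive and 8 more negative and a median of −0.07 in place of 0.03. The count of 8 also became 5 without any 1 of STM2457 at 9 h, replicates 3 and 4, and DMSO at 6 h, replicate 2, and 4 without any 1 of STM2457 at 9 h, replicates 1 and 2, and DMSO at 9 h, replicate 4. The 3 more negative became 5 without any 1 of STM2457 at 9 h, replicates 1, 2 and 3, and DMSO at 9 h, replicate 4, and 1 without DMSO at 6 h, replicate 3. The large family of ZNF genes had 63 of 424 more positive and 51 more negative, both shares below those of all genes, with a median difference of 0.00. For the positive calls this did not hold against the 6 h libraries of the emetine experiment. There 75 of 420 were more positive and 42 more negative, beside 14.1% and 17.8% of all genes. Leaving out 1 library gave 44 to 68 more positive and 40 to 67 more negative. Named members were ZNF12 at 0.92 and ZNF436 at 0.72. RALY overlaps EIF2S2 and DOT1L overlaps AP3D1 and PLEKHJ1.

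Of 110 named genes that were called with both sets of 6 h libraries, 22 had a difference over 1.5 times smaller with those of the emetine experiment, and none had one as much larger. Nearly all named genes were chosen by their difference or p with the first 6 h libraries. That choice by itself favours smaller differences with other libraries, so no conclusion is drawn from these counts. Both comparisons also share the 9 h libraries. Among genes more positive at 9 h, these included BTG2 (0.29), IER3 (0.48), DUSP1 (0.34) and DOT1L (0.22). DHFR2, just under that ratio, was at 1.14 in place of 1.69. Among genes more negative, EIF3E (−0.44), EIF3M (−0.28), EIF1AX (−0.23), RARS1 (−0.25), RPS13 (−0.40) and MRPL58 (−0.39) belong to translation. LSM5 (−0.25), DIS3 (−0.21) and CNOT10 (−0.16) act in mRNA decay, MAD2L1 (−0.29) and ECT2 (−0.20) in mitosis, and SRSF3 (−0.22) in splicing. NSA2, a ribosome assembly factor, and KLHL7 were at −0.24 and −0.29 in place of −0.49 and −0.48.

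The difference of effects went with the structure of the mRNA across the 13395 coding genes with sequence features. Coding genes were ranked and split into 5 equal bins. In the bin with the longest transcripts 27.3% were more positive and 12.2% more negative at 9 h, and in the bin with the shortest 8.1% and 33.9%. In the bin with the highest GC content of the coding sequence 27.2% were more positive and 8.55% more negative, and in the lowest 7.76% and 34.8%. Median coding GC content was 57.8% in the genes more positive at 9 h and 47.0% in those more negative, beside 52.8% in all. Spearman's rho with the difference was 0.33 for coding GC, 0.24 for transcript length, 0.25 for coding length and 0.26 for the longest internal exon, across genes, which are not independent replicates and share these features with each other.

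Genes with more GGACT in the coding sequence were more often more positive at 9 h. With 10 copies or more 35.8% of 212 genes were more positive and 1.42% more negative, and with none 13.6% and 29.6% of 3223 genes. A longer coding sequence has room for more copies, and rho was 0.09 for copies per kilobase and 0.21 for their number. Genes with 1 exon had 28.8% more positive and 7.27% more negative, with median effects of 0.40 at 9 h and 0.20 at 6 h.

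The difference also went with expression level. In the bin with the highest mean expression 11.4% were more positive and 40% more negative, and in the lowest 15% and 1.61%, with rho of −0.35. Within each expression bin, genes with coding GC above the median had the higher median difference, 0.31 against 0.10 in the lowest bin and −0.05 against −0.16 in the highest. So had genes with long transcripts, with 0.30 against 0.19 and −0.04 against −0.20. Against the 6 h libraries of the emetine experiment the median difference was 0.07 in the bin with the highest GC and −0.08 in the lowest, and 0.03 for the longest and −0.12 for the shortest transcripts, with the same order and smaller size than the 0.16 and −0.14, and 0.09 and −0.14, of the main comparison. The parts of GC content, length and library preparation in the differences were not tested. The deposited tables of the 9 h and 6 h experiments carry different processing words in their names, which was also not tested.

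**Figure D5:**
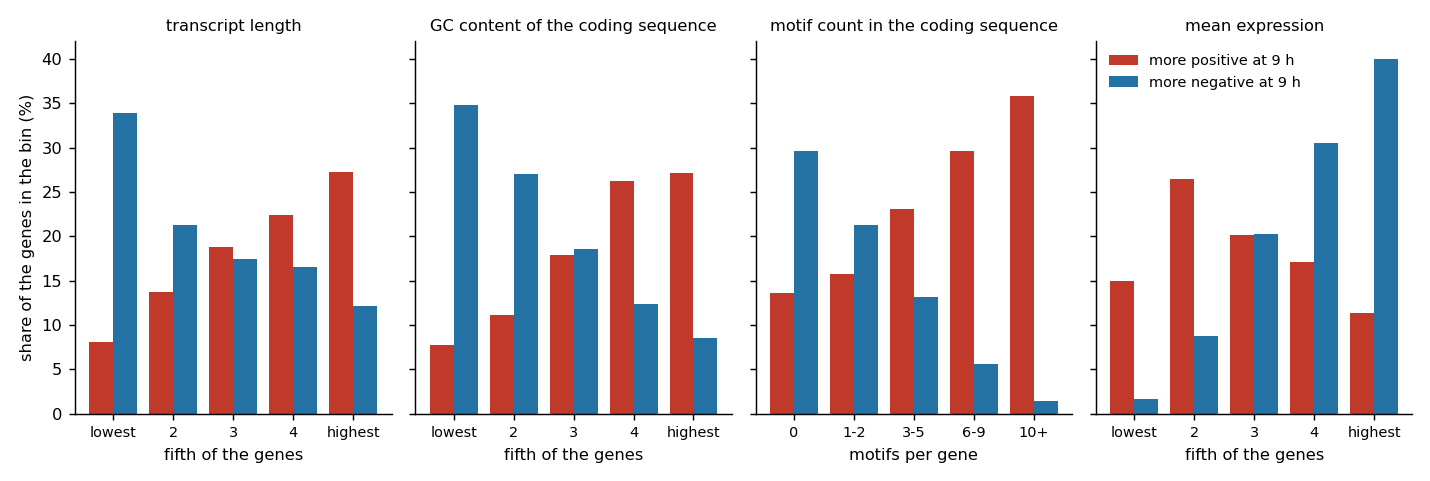
Share of coding genes called more positive (red) and more negative (blue) at 9 h in bins of transcript length, GC content of the coding sequence, number of GGACT motifs in the coding sequence, and mean expression. More positive genes gain share with length, GC and motif count, up to 35.8% with 10 motifs or more, and more negative genes with expression, up to 40% in the highest bin.

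Of 2247 long noncoding RNAs tested, 361 were more positive and 34 more negative at 9 h. The 16.1% more positive is close to the 17.2% of all genes, and both this share and the 1.51% more negative are close to those of coding genes in the lowest expression bin. The long noncoding RNAs had a median difference of 0.27 and median effects of 0.05 at 9 h and −0.22 at 6 h. Protein coding genes, 13426 in number, had 2419 more positive and 2712 more negative and a median difference of 0.01.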

How the data were processed

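The deposited values were raw read counts per Ensembl gene ID and library, not normalized by the authors. The submitters' processing notes name STAR 2.7.3a, Subread 2.0.0, featureCounts, SAMtools 1.9, Trimmomatic, cutadapt 4.0 and 1.18, FastQC 0.11.8 and the genome build GRCh38.p12. How strand was set in counting, and which annotation release was used, is not given in the sources used here. Reads of overlapping genes therefore cannot be assigned with certainty. Each table held 60662 gene IDs, of which 58587 were in GENCODE release 29. The 6 h tables also held 92 spike-in RNAs and the 9 h tables none, so no spike-in scaling across times was made.

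Counts of the 14 libraries were fitted in R 4.3.3 with edgeR 4.0.16 (TMM, filterByExpr on the group, quasi-likelihood F test, Benjamini-Hochberg adjustment over all 16749 genes, threshold 0.05), with 1 mean per group and the difference of effects as the contrast. The depth of 22510323 to 42303951 counts per library left a median standard error of 0.10 on the log2 scale. Tested on simulated counts for 16448 genes, the fit recovered 47 of 50 genes given a difference of 1, 44 of 50 given −1, 35 of 50 given 0.5 and 38 of 50 given −0.5, with 14 false calls. The simulated counts were independent, few genes were changed, and no library stood apart as STM2457 at 6 h, replicate 3, did. The 14 false calls therefore do not measure the false calls in the real libraries. No group held a pair of libraries that differed by less than sampling noise. Same-numbered libraries did not deviate together (r of −0.18 to 0.10), so the fit has no replicate block.

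Named genes were the 12 coding genes with the largest difference in each direction among called genes whose mean log2 CPM was 2 or more, 2 genes per class of effects, up to 4 called members, taken by smallest p, of each list described, the 3 smallest p, and METTL3 and YTHDF2, 116 genes in all. CIRBP, OPN3, HOXB3, HOXB7 and SUPT4H1 were added after their values were seen, as overlapping genes. Members and gene lists were chosen with earlier results of these data known. Alternatives were DESeq2 1.42.0, other scalings and filters, thinning, a minimum difference, a replicate block, a 20-library fit, the 6 h libraries of the emetine experiment, and leaving out each library. Sequence features came from GENCODE 29 transcripts. The other 12 libraries, with YTHDF2 siRNA or emetine, were not used here. A result for 1 of the named genes is not reported here.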

Additional observations from a re-analysis of the deposited data

Results flagged for a closer look

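The difference of effects between 9 h and 6 h was itself the comparison tested, so the 5687 called genes all passed the same contrast. Each time had its own experiment, so a call does not show a change with time alone. Among the named genes, 20 also had effects of opposite direction and at least 0.25 in size. Those with an effect above 0 at 9 h and below 0 at 6 h were CIRBP-AS1 (difference 2.73), CHML (2.09), NPY1R (1.48), TIGD7 (1.46), ENDOD1 (1.35), MORC2 (1.34), ZNF112 (1.33), APC (1.30), RNF43 (1.22), CELSR2 (0.74) and PCK2 (0.70). Those with an effect below 0 at 9 h and above 0 at 6 h were RAB5IF (−1.02), C4orf48 (−0.96), SYBU (−0.86), RPL22L1 (−0.72), RPS13 (−0.70), NDUFB6 (−0.69), MRPL23 (−0.69), LSM5 (−0.57) and MAD2L1 (−0.57). RPS13 overlaps PIK3C2A on the same strand. In the 6 h libraries of the emetine experiment none of these last 9 reached 0.25 at 6 h, with effects of −0.22 to 0.19, while 10 of the 11 in the first set were at −0.25 or below, all but PCK2 (−0.16). The 20 genes were picked in part by their effect in the first 6 h libraries, which by itself favours smaller 6 h effects elsewhere. Direction was read from the estimates alone, and the groups of TIGD7, RNF43, RAB5IF and C4orf48 overlapped at 9 h.

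In 12 of 240 tests, made on named genes and library measures in the 9 h groups of 4 libraries, 1 library stood far from the other 3, and chance alone gives about 1 in 20. With STM2457 at 9 h these were CHML in replicate 4 (131 CPM), WTAP in replicate 1 (186 CPM), EPB41L4A-AS1 in replicate 4 (16.5 CPM), MCL1 in replicate 2 (348 CPM) and UQCRC1 in replicate 3 (156 CPM). With DMSO at 9 h they were FAT4 in replicate 3 (13.95 CPM), ADGRL3 in replicate 1 (23.6 CPM), PAN2 in replicate 4 (35.8 CPM), SNHG32 in replicate 4 (14.2 CPM), ERRFI1 in replicate 3 (41.9 CPM), DUSP16 in replicate 2 (45.3 CPM) and TYMS in replicate 2 (179 CPM). No named gene lost its call when any of the 14 libraries was left out.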

How the results depend on the processing

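The count of 5687 called genes stayed within 1.5 times under DESeq2 (5736), RLE (5939) and upper-quartile scaling (5732), no filter (5300), a stricter filter (5101), 20 libraries (6202), thinning to equal depth (4792) and the 6 h libraries of the emetine experiment (5193, or 32% of 16243). Leaving out 1 library gave 4724 to 6200 calls, 2060 to 3044 more positive and 2318 to 3421 more negative. Scaling to ribosomal protein genes gave 9590 calls, 9520 more positive and 70 more negative. A minimum difference of 0.5 gave 163, 157 more positive and 6 more negative. The replicate numbers do not pair the libraries, and the fit with the replicate block gave 5431 calls, 2765 more positive and 2666 more negative.

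Of the 116 named genes, 18 changed sign, all under ribosomal protein scaling: METTL3 (0.32), SRSF4 (0.13), SNHG7 (0.10), DIS3 (0.10), WTAP (0.10), YTHDF2 (0.09486), SNHG15 (0.07633), CNOT10 (0.07004), ECT2 (0.04812), DNAJA1 (0.04235), SRSF3 (0.04044), SRSF6 (0.02778), RALY (0.02412), LSM7 (0.02204), EIF3F (0.01919), RFC5 (0.0057), EPB41L4A-AS1 (0.0045) and YTHDF1 (1.08e-05). A minimum difference of 0.5 left 25 named genes on their side of the threshold. With the 6 h libraries of the emetine experiment TMEM160, RAB5IF, C4orf48, SMIM14 and DUSP16 lost their call, and the cause was not tested. The same time point compared between the 6 h experiments differed in 141 of 16720 genes (0.843%). Precision was lowest for genes of low expression, with a median standard error of 0.29 in the lowest bin of coding genes and 0.07 in the highest.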
